A study of Mus musculus with 4 samples.

Results

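The 6 genes of the retinoic acid receptors (RARs: Rara, Rarb and Rarg) and the retinoid X receptors (RXRs: Rxra, Rxrb and Rxrg) were taken by symbol from a table of 23235 mouse genes and described in 4 RNA libraries. WT_ES came from wild-type embryonic stem (ES) cells of the J1 background at day 0, and DKO_ES from day 0 ES cells lacking both Dnmt3a and Dnmt3b, the genes of the enzymes that set new DNA methylation. WT_NP and DKO_NP came from neural progenitor cells made from the same 2 kinds of ES cell and collected at day 6, after 4 days as embryoid bodies and 2 days with retinoic acid. The strain was 129S4/SvJae throughout; ES cells were kept in serum with leukemia inhibitory factor and had been taken off feeder cells. Each group held 1 library, so no difference below has a replicate check, no test between groups was run, and line, day and library cannot be told apart. Whether the knockout line was 1 clone is not given in the sources used here.

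RARs are nuclear receptors that bind retinoic acid, a derivative of vitamin A, and they act on DNA as a pair with an RXR. Without ligand such a pair recruits corepressors, and with ligand it exchanges them for coactivators at direct repeats of a short half-site. RXRs also pair with receptors for thyroid hormone, vitamin D, fatty acids and oxysterols. In ES cells retinoic acid is widely used to drive neural differentiation, and Rarb is a textbook target of the receptors themselves.

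The promoter that carries that textbook link is shown first, followed by a promoter of each of the other receptor genes that stood 2-fold apart between day 0 and day 6 in at least 1 genotype. They are RefSeq windows on GRCm38.p6, from 250 bases before to 50 bases after an annotated start, written 5′ to 3′ along the gene; the expression values were made on another build, mm9. In the Rarb window, on the minus strand at chr14:16575427-16575726, capitals mark a direct repeat. In the Rarg window (minus strand, chr15:102257473-102257772) and the Rxra window (plus strand, chr2:27676951-27677250), capitals mark CpG pairs, the sites at which DNA is methylated.
Rarb: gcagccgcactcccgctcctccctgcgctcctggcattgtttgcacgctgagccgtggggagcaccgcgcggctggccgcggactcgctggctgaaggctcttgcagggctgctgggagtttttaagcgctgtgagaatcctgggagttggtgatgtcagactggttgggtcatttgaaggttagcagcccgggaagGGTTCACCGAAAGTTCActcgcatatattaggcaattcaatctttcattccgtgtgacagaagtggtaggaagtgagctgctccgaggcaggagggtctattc
Rarg: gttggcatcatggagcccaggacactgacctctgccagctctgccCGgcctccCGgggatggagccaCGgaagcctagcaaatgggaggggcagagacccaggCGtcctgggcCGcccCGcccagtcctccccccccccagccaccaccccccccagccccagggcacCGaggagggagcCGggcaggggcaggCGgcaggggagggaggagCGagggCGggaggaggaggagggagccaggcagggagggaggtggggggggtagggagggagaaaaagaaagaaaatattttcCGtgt
Rxra: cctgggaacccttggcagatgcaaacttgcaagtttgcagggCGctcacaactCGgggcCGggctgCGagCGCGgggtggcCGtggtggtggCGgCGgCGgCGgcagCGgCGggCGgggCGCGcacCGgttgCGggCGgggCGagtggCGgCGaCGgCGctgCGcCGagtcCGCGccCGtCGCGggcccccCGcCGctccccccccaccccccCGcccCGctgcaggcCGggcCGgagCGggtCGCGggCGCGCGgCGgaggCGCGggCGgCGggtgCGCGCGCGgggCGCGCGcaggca

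The search took the half-site AGGTCA, the variant AGTTCA, the further variant GGGTCA and the last variant GGTTCA, in any pairing, repeated in the same direction with a spacer of 1, 2 or 5 bases, on both strands. Matches of different spacing could overlap. Among the 13 windows of the 6 genes, the Rarb window held the only match, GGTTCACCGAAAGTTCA, with a spacer of 5 bases, at positions -53 to -37 from the start. Of 32817 windows of the same length, 0.0975% held a repeat with that spacer and 0.588% a repeat of any of the 3 spacings. The half-sites and spacers were chosen with Rarb known as a retinoic acid target, so its match is a description and was not a test. CpG content differed widely among the genes. The observed CpG number relative to that expected from base composition was 0.696 for Rarb, 0.335 for the Rarg window printed above, 0.504 for the other Rarg window, 0.198 to 0.609 for 4 Rara windows and 0.373 and 0.602 for Rxrg. Rxrb was CpG-rich at both starts (1.05 and 0.936), whereas Rxra had 55 CpGs in the window printed above (1.08) and 1 CpG at its other start (0.0459). The median over all windows was 0.383, with quartiles of 0.176 and 0.7495. Methylation was not measured in these libraries, and which start was used cannot be read from values per gene.

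Levels are FPKM, fragments per kilobase of transcript scaled to the number of mapped reads, and the authors deposited 1 value per gene and library. The libraries rested on approximately 14.0 M (WT_ES), 15.2 M (DKO_ES), 36.7 M (WT_NP) and 25.3 M (DKO_NP) reads, estimated from the steps of low values. The median gene stood lower in WT_NP than in WT_ES by a log2 ratio of -0.82 as deposited, by -0.43 in DKO_NP against DKO_ES, and higher by 0.39 in DKO_NP against WT_NP. Ratios are therefore given after median scaling, which divides each library by the median ratio of its genes to their geometric mean over all 4, among genes at 1 FPKM or more in every library. The 7 ES cell markers summed to 2592 and 2641 scaled FPKM in WT_ES and DKO_ES, and to 59.3 and 156 in WT_NP and DKO_NP. The 10 neural progenitor markers summed to 26.0 (WT_ES), 38.2 (DKO_ES), 82.0 (WT_NP) and 255 (DKO_NP). Markers of other cell types were also found at day 6. In WT_NP all 8 endoderm and all 8 mesoderm markers reached 1 FPKM and summed to 189 and 124; in DKO_NP 7 and 6 of them did, summing to 34.1 and 27.5. The 5 embryonic blood markers summed to 1142 in WT_NP and 82.1 in DKO_NP, and Ttr, Hba-x and Hbb-y of these lists were listed at 0 in both ES cell libraries. The 6 fibroblast markers, which feeder cells would carry, summed to 46.3 (WT_ES), 12.6 (DKO_ES), 83.0 (WT_NP) and 37.4 (DKO_NP). RNA of both targeted genes was lower but present in the knockout libraries. Dnmt3a was at 35.3 FPKM (WT_ES), 12.3 (DKO_ES), 17.2 (WT_NP) and 4.14 (DKO_NP), and Dnmt3b at 140.3, 13.9, 9.98 and 5.22.

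**Figure D1:**
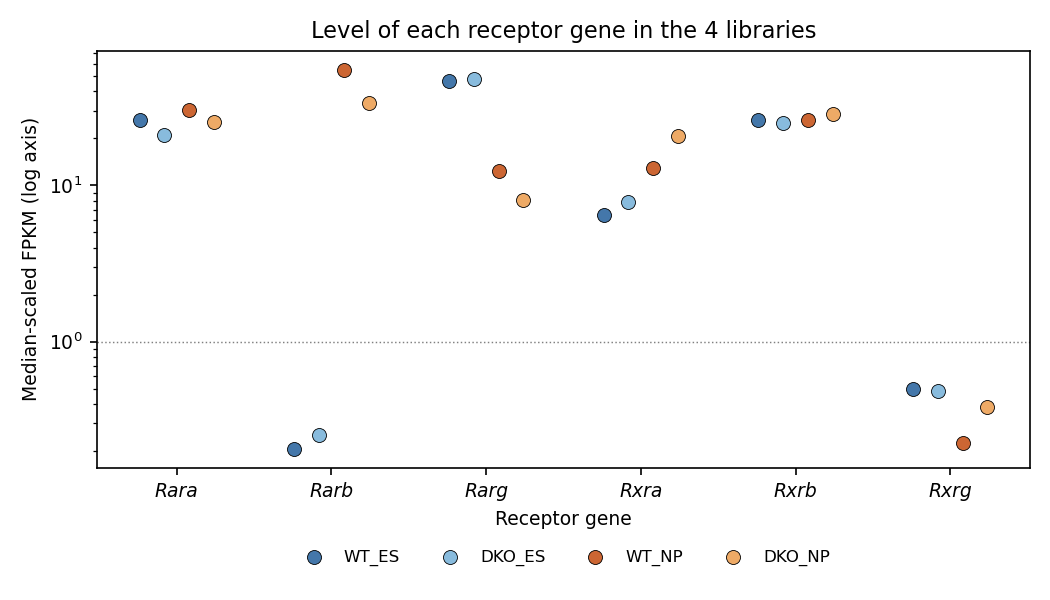
Level of each receptor gene in median-scaled FPKM (log axis), with 1 point per library and a dotted line at 1. Rarb points of the ES cell libraries lie below 1 and those of the day 6 libraries above 30, while Rara and Rxrb points lie close together.

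Rarb, the receptor that retinoic acid itself induces, went from almost no RNA to the most abundant of the 6 genes. Its day 0 levels were 0.272 FPKM (WT_ES) and 0.318 FPKM (DKO_ES), and its day 6 levels 36.9 (WT_NP) and 30.6 (DKO_NP). Both ES cell libraries were thus far below both day 6 libraries. The values correspond to 11, 14, 3921 and 2248 whole reads in that order, which also shows how few reads the day 0 levels rest on. After scaling, the WT_NP level of Rarb was 267-fold above that of WT_ES, with a 95% counting interval of 149 to 534. In the knockout it was 133-fold higher in DKO_NP than in DKO_ES (78.8 to 243). These intervals are exact (Clopper-Pearson) and cover counting error only, since PCR copies are not independent molecules. On the log2 scale with 1 FPKM added, the ratios were 5.54 and 4.79, which placed Rarb 75th from the top of 14086 genes in the wild type and 54th of 14050 in the knockout. In bulk RNA, fewer cells that express a gene and less RNA per cell cannot be told apart. Top2b, a topoisomerase gene, overlaps Rarb on the other strand, and whether libraries were stranded is not given in the labels. Top2b was at 29.0 FPKM (WT_ES) and 36.3 FPKM (DKO_ES), where Rarb was below 1. At day 6, where Rarb was high, Top2b was at 36.2 (WT_NP) and 57.9 (DKO_NP). An antisense gene, Gm48162, also overlaps Rarb and had no value here. Shared reads were not tested.

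Rarg, the main RAR gene of ES cells here, moved the other way. It had 61.2 FPKM (WT_ES) and 60.3 FPKM (DKO_ES) at day 0, and 8.31 (WT_NP) and 7.28 (DKO_NP) at day 6. The 2 ES cell libraries were nearly equal and the 2 day 6 libraries were both low. After scaling, Rarg was 3.75-fold lower in WT_NP than in WT_ES (3.47 to 4.05) and 6.01-fold lower in DKO_NP than in DKO_ES (5.48 to 6.60). Its log2 ratios of -1.82 and -2.45 were exceeded in the lower direction by 3.34% and 1.62% of genes. Unlike Rarb, it was well covered in all 4 libraries, with approximately 2522, 2700, 900 and 544 reads.

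Rara, which is broadly expressed in most tissues, stayed within a narrow range. Its FPKM was 34.8 (WT_ES), 26.5 (DKO_ES), 20.3 (WT_NP) and 23.1 (DKO_NP). Relative to the median gene, Rara was 1.15-fold above its WT_ES level in WT_NP (1.08 to 1.22) and 1.20-fold higher in DKO_NP than in DKO_ES (1.12 to 1.29). These directions depend on the scaling: as deposited, the log2 ratios were -0.75 and -0.19, against 0.19 and 0.26 after scaling.

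Among the RXR genes, Rxra was higher at day 6 relative to the median gene in both genotypes. Its FPKM was 8.56 (WT_ES), 9.78 (DKO_ES), 8.69 (WT_NP) and 18.8 (DKO_NP), so that as deposited DKO_NP stood above the other 3 libraries. The reads were 682, 847, 1820 and 2713. Relative to the median gene, Rxra was 2.00-fold above its WT_ES level in WT_NP (1.83 to 2.18) and 2.64-fold higher in DKO_NP than in DKO_ES (2.45 to 2.86). With 1 FPKM added, the log2 ratios were 0.90, below the 2-fold mark, and 1.30, above it. As deposited they were 0.019 and 0.87, both below that mark.

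Rxrb, the major RXR gene in all 4 libraries, differed little. Its FPKM was 34.5 (WT_ES), 31.6 (DKO_ES), 17.7 (WT_NP) and 25.9 (DKO_NP). After scaling it was 1.01-fold above its WT_ES level in WT_NP, with an interval that spans equality (0.938 to 1.09), and 1.13-fold higher in DKO_NP than in DKO_ES (1.05 to 1.22). As deposited both ratios pointed the other way, with log2 values of -0.92 and -0.27.

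Rxrg, a receptor best known from skeletal muscle and parts of the nervous system, was near the limit of detection. Its FPKM was 0.660 (WT_ES), 0.606 (DKO_ES), 0.150 (WT_NP) and 0.345 (DKO_NP), or 20, 20, 12 and 19 reads. It never reached 1 FPKM and was therefore in none of the counts below. Its scaled level was 2.23-fold lower in WT_NP than in WT_ES (1.04 to 5.00); in the knockout the interval of the day 6 to day 0 ratio, 0.396 to 1.55, spans equality.

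In the wild type, 5 of the 6 genes reached 1 FPKM, and 1 of these (Rarb) was at least 2-fold higher at day 6 and 1 (Rarg) at least 2-fold lower. Over all 14086 genes, 27.5% were at least 2-fold apart, 16.2% higher and 11.3% lower. In the knockout Rarb and Rxra were at least 2-fold higher and Rarg lower, against 23.0% of 14050 genes apart (11.8% higher, 11.2% lower). With 5 genes these counts do not set the receptors apart from the rest of the table. The median log2 ratio of the receptor genes was 0.19 in the wild type and 0.26 in the knockout, beside medians of 0.012 and -0.027 over all genes.

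**Figure D2:**
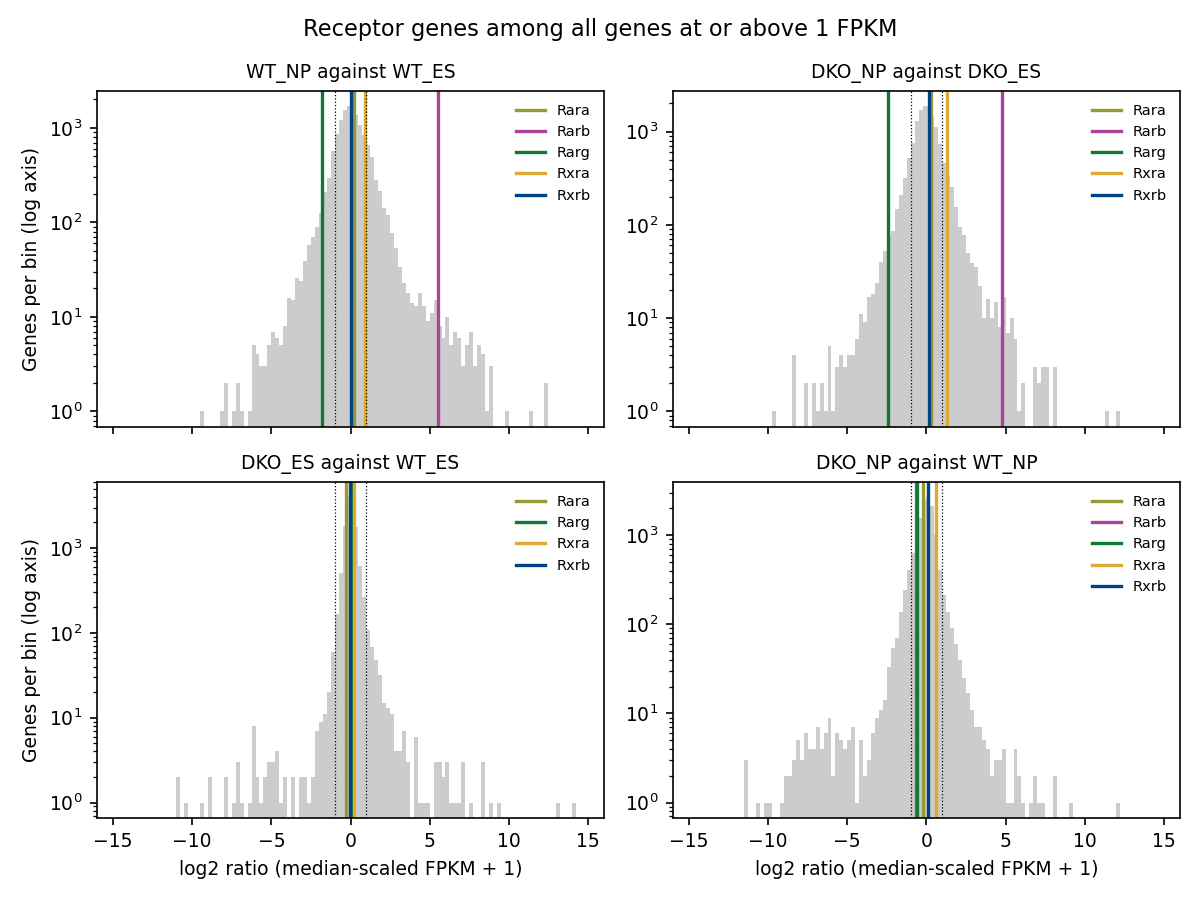
Number of genes (log axis) by log2 ratio of median-scaled FPKM + 1 in the 4 comparisons, for genes that reach 1 FPKM in at least 1 of the libraries compared, with coloured lines for the receptor genes and dotted lines at 2-fold. In the differentiation panels (top) Rarb lies in the upper tail at 5.54 and 4.79 and Rarg at -1.82 and -2.45, and in the genotype panels (bottom) every receptor line lies within the dotted lines.

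The RNA make-up of each receptor class changed between day 0 and day 6, and this reading does not depend on scaling because it compares genes within a library. Among the RAR genes, Rarg held 63.6% of the summed FPKM in WT_ES and 69.2% in DKO_ES, and Rara most of the rest, with Rarb at 0.283% and 0.366%. At day 6 Rarb held 56.3% in WT_NP and 50.2% in DKO_NP, while Rarg held 12.7% and 11.9%. Rara kept a similar share, at 36.1% (WT_ES), 30.4% (DKO_ES), 31.0% (WT_NP) and 37.9% (DKO_NP). The RAR RNA at day 0 was therefore mainly Rarg with Rara, and at day 6 mainly Rarb with Rara. Receptor protein was not measured. The ratio of Rarg to Rara went from 1.76 in WT_ES to 0.410 in WT_NP, 4.30-fold lower (3.89 to 4.75), and from 2.28 in DKO_ES to 0.314 in DKO_NP, 7.24-fold lower (6.45 to 8.14).

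Among the RXR genes, Rxrb held the largest share in every library, and its margin narrowed. Its share was 78.9% (WT_ES), 75.2% (DKO_ES), 66.7% (WT_NP) and 57.6% (DKO_NP). Rxra held 19.6%, 23.3%, 32.8% and 41.6% in the same order, and Rxrg between 0.567% and 1.51%. From WT_ES to WT_NP the ratio of Rxra to Rxrb was 1.98-fold higher (1.76 to 2.22), and from DKO_ES to DKO_NP 2.33-fold higher (2.10 to 2.60). Unlike the change of Rxra alone, these do not move with the scaling.

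**Figure D3:**
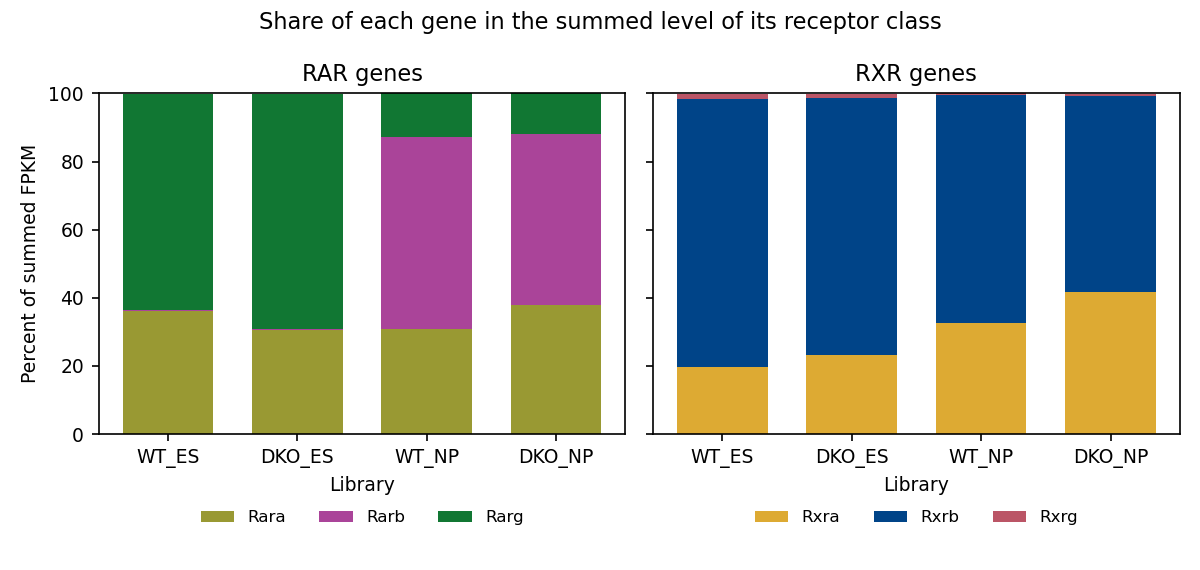
Percent of the summed FPKM of the 3 RAR genes (left) and the 3 RXR genes (right) held by each gene in each library. Rarb takes 0.283% and 0.366% of the RAR sum in the ES cell libraries and 56.3% and 50.2% in the day 6 libraries, and the Rxra share is highest in DKO_NP at 41.6%.

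The order of the 6 levels within a library, per kilobase, was Rarg, Rara, Rxrb, Rxra, Rxrg and Rarb in WT_ES. There Rara and Rxrb did not differ beyond counting error (ratio 1.01, 0.937 to 1.09). In DKO_ES the order was Rarg, Rxrb, Rara, Rxra, Rxrg and Rarb, and the last pair did not differ beyond counting error (1.90, 0.915 to 4.08). In WT_NP Rarb came first, followed by Rara, Rxrb, Rxra, Rarg and Rxrg, with Rxra and Rarg not separable (1.05, 0.965 to 1.13). In DKO_NP the order was Rarb, Rxrb, Rara, Rxra, Rarg and Rxrg, and every neighbouring pair was apart by more than counting error. Summed FPKM of the RAR genes exceeded that of the RXR genes 2.20-fold in WT_ES, 2.08-fold in DKO_ES and 2.47-fold in WT_NP, but 1.36-fold in DKO_NP.

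The receptor genes differed little between the ES cell libraries of the 2 genotypes. Of the 4 genes at or above 1 FPKM, none was at least 2-fold apart, against 3.71% of 13596 genes (2.56% higher, 1.15% lower). After scaling, Rara was 1.25-fold lower in DKO_ES than in WT_ES (1.16 to 1.34) and Rxra 1.20-fold higher (1.09 to 1.33). Rarg was 1.04-fold higher (0.982 to 1.095) and Rxrb 1.04-fold lower (0.959 to 1.12), both with intervals that span equality, and the sign for Rarg turned as deposited (log2 -0.023). Rarb, at 11 and 14 reads, gave a ratio of 1.23 (0.520 to 3.001), an interval too wide to show a 2-fold difference at this depth.

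Between day 6 libraries, DKO_NP held less Rarb and Rarg and more Rxra relative to the median gene. Of 5 genes at or above 1 FPKM none was 2-fold apart after scaling, against 12.8% of 13601 genes (4.76% higher, 7.99% lower). Rarb was 1.63-fold lower in DKO_NP (1.55 to 1.72), Rarg 1.55-fold lower (1.39 to 1.72), and Rara 1.19-fold lower (1.12 to 1.26). Rxra was 1.59-fold higher (1.501 to 1.69) and Rxrb 1.08-fold higher (1.01 to 1.16). As deposited, Rxra passed the mark with a log2 ratio of 1.03, Rarb and Rarg were closer to equality at -0.26 and -0.17 (against -0.69 and -0.57 after scaling), and Rara turned to 0.18. The comparison within libraries gave the same picture for Rxra, whose ratio to Rxrb was 1.47-fold higher in DKO_NP than in WT_NP (1.34 to 1.61). The ratio of Rarb to Rara was 1.37-fold lower in DKO_NP (1.27 to 1.49) and that of Rarg to Rara 1.30-fold lower (1.15 to 1.48). The ratio of Rarb to Rarg, both lower there after scaling, did not differ beyond counting error (0.948, 0.841 to 1.07). The endoderm and mesoderm marker sums given above were also lower in DKO_NP, with 5 of 8 markers at least 2-fold lower in each list. Sox17 (log2 -0.041), Afp (-0.27) and Hand1 (-0.24) of these lists differed little. The neural and ES cell sums were higher there, with 9 of 10 and 4 of 7 markers at least 2-fold higher. Sox2 was the largest part of the ES cell sum in DKO_NP (61.9), and the ES cell marker Klf4 was lower (-0.80). The part of these cell types in the receptor differences was not tested.

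The change from day 0 to day 6 was smaller in the knockout for Rarb, by 0.75 on the log2 scale (4.79 against 5.54), and went further down for Rarg (difference -0.62). For Rxra the knockout ratio was higher by 0.40, for Rxrb by 0.16 and for Rara by 0.067. These sizes depend on the scaling. As deposited the differences were -0.31 for Rarb, -0.15 for Rarg, 0.85 for Rxra, 0.65 for Rxrb and 0.56 for Rara, and with upper-quartile scaling Rara turned to -0.029. No receptor gene reached a difference of 1, against 13.1% of 14713 genes. These differences compare 4 libraries and were not tested.

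The genes around the receptors divided into those that make, bind and degrade the ligand, the cofactors, the other nuclear receptors and the targets. Of 15 genes of retinoid supply and breakdown, 13 reached 1 FPKM at differentiation of the wild type. After scaling all 13 were at least 2-fold higher (median log2 ratio 3.16). In the knockout 11 of 13 were (median 2.18), with none lower. As deposited, not all 13 were in the wild type. Crabp1 stood at 54.2 FPKM (WT_ES) and 76.0 (WT_NP), and Fabp5 at 56.9 and 67.9, both below 2-fold. Here and in later lists, genes below 1 FPKM at day 0, such as Cyp26a1 and Cyp26b1, entered a differentiation count only through day 6. Beside these and later counts after scaling, 16.2% of all genes were higher and 11.3% lower in the wild type. In the knockout 11.8% were higher and 11.2% lower. The shares were 4.76% higher and 7.99% lower in DKO_NP against WT_NP, and 2.56% and 1.15% in DKO_ES against WT_ES. Cyp26a1 and Cyp26b1, whose enzymes break retinoic acid down, stood at 0.443 and 0.283 FPKM in WT_ES and at 102 and 77.0 in WT_NP. Dhrs3, which turns retinal back to retinol, was 71.6-fold above its WT_ES level in WT_NP (56.7 to 91.6). Between the day 6 libraries 1 of 13 was higher and 4 lower in DKO_NP, or 4 higher and 2 lower as deposited. Among the 4 were Rbp4, the retinol carrier of liver and yolk sac (7.12-fold lower, 6.09 to 8.35), and Aldh1a2, a retinoic acid synthesis enzyme of the mesoderm (4.68-fold lower, 3.79 to 5.83).

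Cofactors of the receptors differed less than the ligand genes. Of 11 coactivator genes none was 2-fold higher and 1, the acetyltransferase gene Kat2b, was lower in both differentiation comparisons, by 3.97-fold in WT_NP (3.61 to 4.37) and 2.51-fold in DKO_NP (2.33 to 2.69). As deposited, 6 coactivator genes were at least 2-fold lower in WT_NP and 2 in DKO_NP. Of 11 corepressor genes 2 were higher in each genotype and none lower after scaling, near the 16.2% and 11.8% higher over all genes. As deposited 1 was higher and 3 were lower in the wild type, and 1 was higher and 1 lower in the knockout. The genes higher after scaling were Nrip1, a corepressor that binds liganded receptors (9.84-fold higher in WT_NP, 8.96 to 10.8, and 7.72-fold in DKO_NP, 6.98 to 8.55), with Lcor in the wild type and Gps2 in the knockout. Between the day 6 libraries Kat2b was 2.12-fold higher in DKO_NP (1.92 to 2.35), with a log2 ratio of 0.95. After scaling and with 1 FPKM added, no cofactor gene was 2-fold apart between genotypes; as deposited, 1 coactivator gene was higher in DKO_NP.

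Of 13 partner receptors of RXR only 5 reached 1 FPKM at differentiation in either genotype. Pparg, the fatty acid receptor of fat cells, was higher (0.122 FPKM in WT_ES, 1.61 in WT_NP) and Nr4a1 was lower (3.05-fold in WT_NP, 2.68 to 3.48); as deposited 3 of the 5 were lower in WT_NP and 2 in DKO_NP. Thra, a thyroid hormone receptor gene, was 2.36-fold lower in DKO_NP than in WT_NP (2.07 to 2.69), and none of the 5 was 2-fold lower there as deposited. Of 7 orphan receptors that bind direct repeats, 4 were higher in the wild type, or 2 as deposited, and 3 in the knockout with 1 lower. Between the day 6 libraries 2 were lower in DKO_NP, and 1 was also higher as deposited. Nr2f1 and Nr2f2, the COUP-TF genes, stood at 0.0286 and 0.0481 FPKM in WT_ES and at 14.7 and 29.8 in WT_NP. Nr2f2 was 4.02-fold lower in DKO_NP than in WT_NP (3.76 to 4.30), as was Hnf4a, a liver and yolk sac receptor gene (11.1-fold, 7.56 to 17.0).

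Known retinoic acid target genes were higher at day 6 in both genotypes. All 16 of 17 that reached 1 FPKM were at least 2-fold higher in the wild type (median 4.30), beside 16.2% of all genes. In the knockout 16 of 17 were (median 4.37), beside 11.8%. Of the 17, 6 are also in the lists above. Between the day 6 libraries 4 of 17 were higher and 4 lower in DKO_NP, with a median of -0.14. Over all genes 4.76% were higher and 7.99% lower there. As deposited 6 of the 17 were higher and 0 lower. Stra8, a germ cell gene named for its response to retinoic acid, was 9.03-fold higher in DKO_NP (8.62 to 9.48) and Hoxd4 3.04-fold higher (2.83 to 3.27), whereas Hoxb1, a hindbrain gene, was 2.73-fold lower (2.43 to 3.08). Between ES cell libraries Crabp2, whose product carries retinoic acid in the cell, was at 10.7 FPKM (WT_ES) and 22.7 FPKM (DKO_ES), 2.24-fold apart (1.83 to 2.75), and was the only gene of these 6 lists at 2-fold there with 1 FPKM added.

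**Figure D4:**
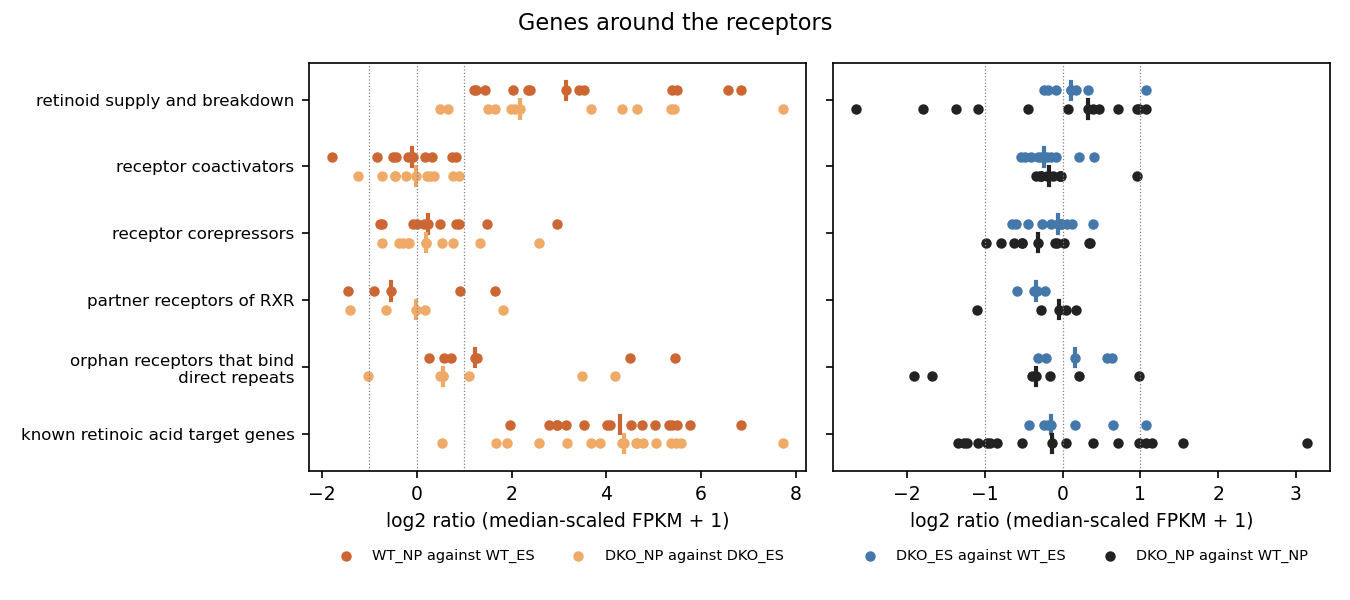
Log2 ratios of median-scaled FPKM + 1 for genes of the 6 lists (1 point per gene at or above 1 FPKM, bar at the median, dotted lines at 0 and 2-fold), for differentiation on the left and genotype on the right. Ligand genes and targets lie to the right of 0 in both differentiation comparisons (medians 3.16, 2.18, 4.30 and 4.37), while coactivators centre near 0.

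The genes whose levels over the 4 libraries were most like each receptor's were found among 12842 genes, by the root mean square difference of centred log2 levels. Nearest to Rarb were Meis1 (0.174), Dhrs3 (0.183) and Meis2 (0.189). All 3 are in the list of retinoic acid targets. Meis1 and Meis2 encode homeobox cofactors of Hox proteins, and Meis1 stood at 0.506, 0.303, 80.8 and 41.9 scaled FPKM in WT_ES, DKO_ES, WT_NP and DKO_NP. Nearest to Rarg were Chmp4c (0.0692), Pfkp (0.0934), a phosphofructokinase gene of glycolysis, and F2rl1 (0.0968). Nearest to Rxra were Cerk (0.0173), Chst2 (0.0386) and Ift74 (0.0456). Rara, Rxrb and Rxrg spanned less than 2-fold on the log2 scale with 1 FPKM added after scaling, and were not compared. With 4 libraries such likeness is a description only.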

How the data were processed

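Total RNA was depleted of rRNA and sequenced as single-end reads of 50 cycles, per the labels' protocols. Bowtie and TopHat were used with mm9, per the submitters' processing notes; their versions and the FPKM program were not given in the sources used here. The authors deposited FPKM for 23235 symbols; 18 blank rows were left out and 0 value columns were unmapped. Low values are whole multiples of 1 read: comparing libraries gave relative denominators of 1.09 (DKO_ES), 2.63 (WT_NP) and 1.82 (DKO_NP) to WT_ES, with which 1368 of 1568 genes below 0.5 FPKM (87.2%) came out whole within 0.02 read. Rarb, Rxra and Rxrg were whole within 0.01, taking the solution nearest to whole reads among those near the annotated length. Reads of other genes are approximate, from the longest GENCODE M21 transcript. A value of 3 reads in a 2 kb gene is 0.108, 0.0989, 0.0409 and 0.0592 FPKM in WT_ES, DKO_ES, WT_NP and DKO_NP.

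Ratios used a pseudocount of 1 FPKM on the log2 scale, which understates low genes, for genes that reached 1 FPKM in at least 1 of the libraries compared; folds have no pseudocount. Median scaling factors were 1.32, 1.25, 0.671 and 0.908 in the same order. Named genes were the receptors, up to 3 of each list with the largest ratio per comparison, and the 3 most alike in pattern. The values of 1 gene of the corepressor list are not reported here. Members and lists were chosen with earlier results of these data known. The steps were tested on simulated data. Python 3.11.15, pandas 2.3.3 and scipy 1.17.1 were used.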

Additional observations from a re-analysis of the deposited data

How the results depend on the processing

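Each ratio was recomputed with FPKM as deposited, upper-quartile scaling, a pseudocount of 0.1 FPKM, no filter and a filter at 5 FPKM. Of 120 recomputed ratios of the receptor genes, 114 kept their sign. The other 6 turned as deposited and were below 2-fold (Rara in 3 comparisons, Rxrb in 2 and Rarg in 1). The filter decides only which genes are counted and cannot change a ratio. Recomputations without a filter and at 5 FPKM, 24 ratios each, therefore kept their values by construction. Of 25 recomputations of the 5 ratios at 2-fold, 24 stayed there, including those of the filter settings, which could not move. The exception was Rxra in DKO_NP against DKO_ES as deposited (0.87). The count of receptor genes 2-fold apart between day 6 libraries was 0, or 1 (Rxra) as deposited; Rxra in WT_NP against WT_ES passed with upper-quartile scaling (1.07). With a pseudocount of 0.1 FPKM, Rarb had log2 ratios of 7.49 and 6.58. Of 240 recomputed list counts 209 stayed within 1.5 times.

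Counts over all genes moved more. Higher and lower genes in WT_NP against WT_ES were 2287 and 1592 after scaling and 901 and 5876 as deposited, and 1322 were higher at 5 FPKM. In DKO_NP against DKO_ES they were 1656 and 1570, against 1102 and 3067 as deposited, and 1097 were higher at 5 FPKM. In DKO_NP against WT_NP they were 648 and 1087, against 1382 and 531 as deposited and 384 and 595 at 5 FPKM. In DKO_ES against WT_ES they were 348 and 156, against 639 and 334 with a pseudocount of 0.1 FPKM. No paired analysis was possible because each group holds 1 library.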

Other observations

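The direct repeat with a spacer of 5 bases occurred in 32 RefSeq promoter windows of 31 genes, of which 8 were in the expression table. Cyp26a1 held one, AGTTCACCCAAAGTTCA on the minus strand relative to the gene, at positions -32 to -16 from its start. Of the 8 genes, 4 reached 1 FPKM at differentiation of the wild type and 3 of these were at least 2-fold higher: Rarb, Cyp26a1 and the embryonic globin gene Hbb-y, which was listed at 0 in WT_ES and at 193 FPKM in WT_NP. The fourth, Blvrb, had a log2 ratio of -0.79. In the knockout 4 of 5 were higher and 1, Blvrb, lower (-1.24). In both genotypes the higher genes were below 1 FPKM at day 0 and entered the counts only through day 6. Their direction was thus largely set by the filter, and only Blvrb was above 1 FPKM at day 0. Over all genes, which also include those expressed at day 0, 16.2% and 11.8% were higher. Rarb and Cyp26a1 were known retinoic acid targets when the motif was chosen, so these counts are a description of the windows.

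Rarb and Cyp26a1 differed between the day 6 libraries. Relative to the median gene, Cyp26a1 was 1.64-fold higher in DKO_NP than in WT_NP (1.59 to 1.69), where Rarb was 1.63-fold lower. Of the other breakdown genes, Cyp26b1 was 2.62-fold lower in DKO_NP (2.54 to 2.72). Cyp26c1 was 1.06-fold higher, with an interval that spans equality (0.850 to 1.31).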
